A study of Mus musculus with 17 samples.

Results

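Cholesterol and fatty acid synthesis is described here through 32 genes, named by symbol and chosen for their roles in the pathway, with earlier results of these data known. They comprise 18 enzymes that build cholesterol from acetyl-CoA, 6 genes that control or serve the SREBP transcription factors, and 8 enzymes that make, desaturate or lengthen fatty acids. Each symbol matched 1 Ensembl gene among the 78298 in the count tables, of which 46200 had any count. All 32 were among the 23972 genes that passed the filter on low counts and were tested.

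The study profiled bulk RNA from mouse lumbar dorsal root ganglia (L4 to L6), the clusters of sensory neuron cell bodies, satellite glia and Schwann cells outside the spinal cord. Wild-type (WT) mice and mice with a knockout (KO) of Twik1, gene symbol Kcnk1, a tandem-pore potassium channel, received either sham surgery or chronic constriction injury (CCI), a nerve injury model of neuropathic pain. All libraries carry day 30 in their labels, and the groups are wild type after sham (5 libraries) and after CCI (5), and knockout after sham (4) and after CCI (3, numbered 2, 3 and 4). The labels give no age, sex, strain or pooling, and no promoter or Cre line for the knockout. Whether each library is its own animal is not stated, and the p-values then reflect nothing beyond the variation among these libraries, part of which may be technical.

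Animal cells make cholesterol through the mevalonate pathway, in which acetyl-CoA units are condensed to HMG-CoA, converted to isoprenoids and squalene, closed into the ring of lanosterol and trimmed to cholesterol. When sterol in the endoplasmic reticulum is low, Scap escorts SREBP proteins to the Golgi, where they are cleaved and released to switch on the enzymes, whereas Insig proteins hold Scap back when sterol is plentiful. SREBP-2, from Srebf2, acts mainly on cholesterol enzymes, and SREBP-1c, from Srebf1, mainly on fatty acid enzymes. In peripheral nerve and ganglion this synthesis is known for supplying the membrane of myelinating Schwann cells, whose sterol is largely made on site, and the membrane of growing axons.

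Libraries held between 52523183 and 73584232 counts in genes. Levels are given as CPM, a gene's counts scaled to the size of its library. The 10 sensory neuron markers, such as Prph and Avil, summed to 14378 to 17677 CPM in each library, so neuronal RNA of the labelled tissue was present throughout. Kcnk1 was lowered but not absent in the libraries labelled knockout, at 89.8 ± 18.01 CPM in sham and 83.9 ± 5.36 after CCI against 127.0 ± 18.9 and 114.3 ± 6.83 in wild type (mean ± SD). Its mean genotype difference was -0.47 ± 0.09 (log2 fold change ± SE, adjusted p = 0.00746 by edgeR's quasi-likelihood test). The tables count all exons, and the deleted part is not given. Summed CPM of 12 axon injury genes such as Atf3 and Sprr1a was 560 to 763 in sham WT and 1376 to 2274 in CCI WT. Sham KO libraries 1 and 2 stood apart from their group at 1469 and 1266, beside 676 and 604 in libraries 3 and 4, so the calls that use them, and the balances of members that use them, are given with and without them. A number in the names of the deposited tables is common to the sham libraries, with another value for CCI WT and another for CCI KO, and what it stands for is not stated. Should it be a processing run, then run and group cannot be told apart, except in the comparison of knockout with wild type in sham, which lies within 1 number.

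Sequence upstream of the members was read because the sterol-responsive enzymes are textbook targets of SREBP. The windows were the 250 bases before each GENCODE canonical start site in GRCm39, searched on both strands. A sterol-type element, written TCACNCCA, was present in 5 of the 32 windows (15.6%) and in 558 of the 16063 tested protein-coding genes (3.5%). The NF-Y box CCAAT was present in 19 members (59.4%) and 35.6% of all, the GC box GGGCGG in 19 members (59.4%) and 45.4% of all, and the E-box CACGTG in 5 members (15.6%) and 7.2% of all. These are matches of letters and not shown binding sites. Sterol-type matches of 4 members are shown with their flanks because they include both branches of the pathway and Srebf2 itself, and capitals mark the match. The sites lie at chr13:120151732-120151783 (plus strand) for Hmgcs1, chr15:82031282-82031341 (plus) for Srebf2, chr11:84063824-84063883 (plus) for Acaca and chr19:10159925-10159984 (plus) for Fads1.
Hmgcs1: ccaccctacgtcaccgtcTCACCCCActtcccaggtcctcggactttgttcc
Srebf2: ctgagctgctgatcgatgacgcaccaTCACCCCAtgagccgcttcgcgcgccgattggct
Acaca: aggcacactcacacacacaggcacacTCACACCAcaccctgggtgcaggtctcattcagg
Fads1: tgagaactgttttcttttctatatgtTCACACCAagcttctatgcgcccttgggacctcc
The matches begin 232 bases before the start site in Hmgcs1, 74 in Srebf2, 98 in Acaca and 216 in Fads1. Those of Hmgcs1 and Srebf2 share the same 8 letters, and so do those of Acaca and Fads1. Windows with both a sterol-type match and an NF-Y box numbered 3 among members (9.4%) and made up 1.3% of all, and those of Hmgcs1 and Srebf2 were among them.

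The window of Hsd17b7, the member with the largest difference after injury in wild type, is shown whole at chr1:169796814-169797063 (minus strand). Capitals mark its 2 NF-Y boxes, read as ATTGG and starting 126 and 34 bases before the start site, and its E-box, starting 104 bases before it.
Hsd17b7: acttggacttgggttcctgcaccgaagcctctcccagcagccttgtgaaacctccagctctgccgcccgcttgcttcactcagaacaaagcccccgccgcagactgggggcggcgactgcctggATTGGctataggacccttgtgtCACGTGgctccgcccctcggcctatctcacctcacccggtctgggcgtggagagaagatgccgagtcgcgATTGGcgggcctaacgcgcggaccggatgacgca
The window also holds 3 GC boxes, left in lower case, and no sterol-type match in these letters.

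All 32 genes were expressed in resting wild-type ganglia. Per kb of canonical transcript, the most abundant was Fdps, which makes farnesyl diphosphate, at 423.9 ± 20.6 CPM per kb (mean ± SD, n = 5). It was followed by Scd2, a desaturase of saturated fatty acids, at 257.6 ± 11.7, by Acly, which supplies cytosolic acetyl-CoA, at 213.3 ± 11.7, and by Hmgcs1, the HMG-CoA synthase, at 203.8 ± 13.1. The levels of Acly and Hmgcs1 were closer than their SDs, whereas Fdps and Scd2 each stood clear of the next gene. Msmo1 (176.2 ± 13.6), which removes sterol methyl groups, Sqle (174.4 ± 6.35), the squalene epoxidase, and Fdft1 (166.3 ± 8.34), the squalene synthase, also lay within each other's spread. Among control genes Srebf2 was highest at 46.4 ± 2.03 CPM per kb, above Insig1 (31.8 ± 1.38), Srebf1 (23.6 ± 2.18), Insig2 (22.3 ± 1.35), the escort gene Scap (19.6 ± 1.54) and the sterol carrier gene Stard4 (6.33 ± 0.62). Fasn, the fatty acid synthase, stood at 30.5 ± 1.0 CPM per kb. The lowest member was Acaca, whose product commits acetyl-CoA to fatty acids, at 5.05 ± 0.41, next to Stard4 and to Lss, the lanosterol synthase (7.23 ± 0.55). Hsd17b7, which reduces a keto group of sterol intermediates, ranked 29 of 32 at 15.2 ± 1.16.

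**Figure D1:**
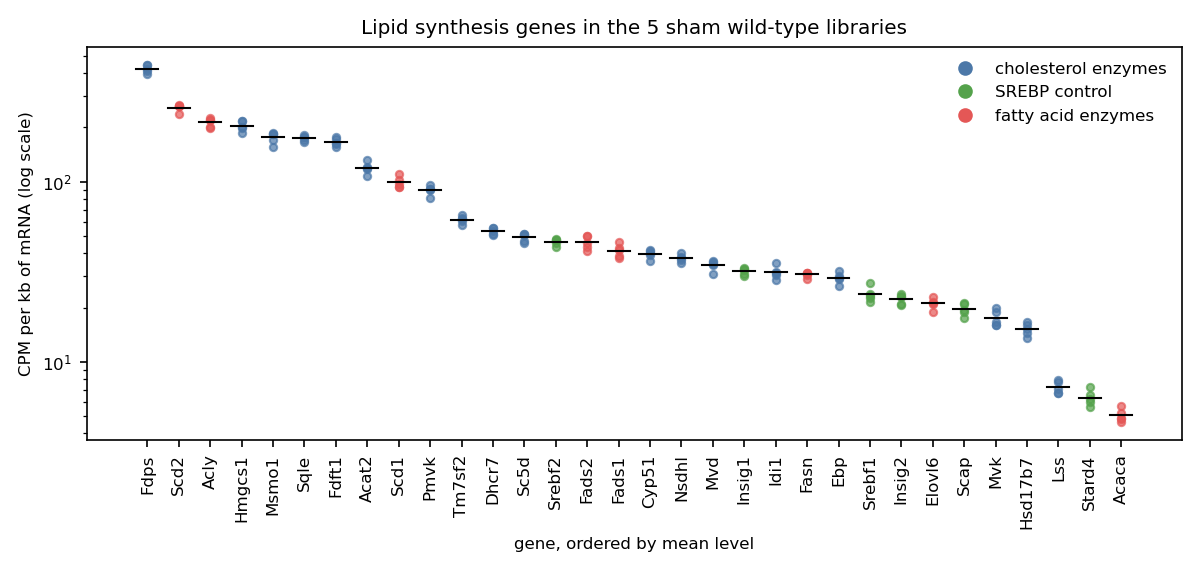
Level of each member in CPM per kb of transcript (log axis) in the 5 sham wild-type libraries, with points for libraries, a bar at the mean and colours for the 3 roles. Fdps is highest at 423.9 and Acaca lowest at 5.05 CPM per kb.

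The members varied little between libraries of a group. The median coefficient of variation of their CPM was 6.25% in sham WT, 4.46% in CCI WT, 8.19% in sham KO and 5.49% in CCI KO, and the widest was that of Hsd17b7 in CCI KO (25.0%). Set against the sham WT mean, the median log2 difference over the 18 cholesterol enzymes was -0.043 to 0.067 in the sham WT libraries and -0.035 to 0.047 in the CCI WT libraries. In the CCI KO libraries it was -0.175, -0.124 and -0.130, below every wild-type library. The sham KO libraries 1 to 4 gave 0.123, 0.097, 0.005 and -0.119, a range from above to below all wild-type libraries. Mvd, the decarboxylase that ends the mevalonate steps, shows this spread at 77.0, 79.6, 61.5 and 53.0 CPM in sham KO libraries 1 to 4, against 59.3 to 69.3 in sham WT. Stard4 read 44.2, 47.1, 34.6 and 30.2 CPM in the same order, and Scd1, the other abundant desaturase, read 658.4, 664.4, 515.5 and 482.0 CPM. Libraries 1 and 2, with the high axon injury genes, were the higher pair for each of these 3 genes, which were chosen after their values were seen.

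**Figure D2:**
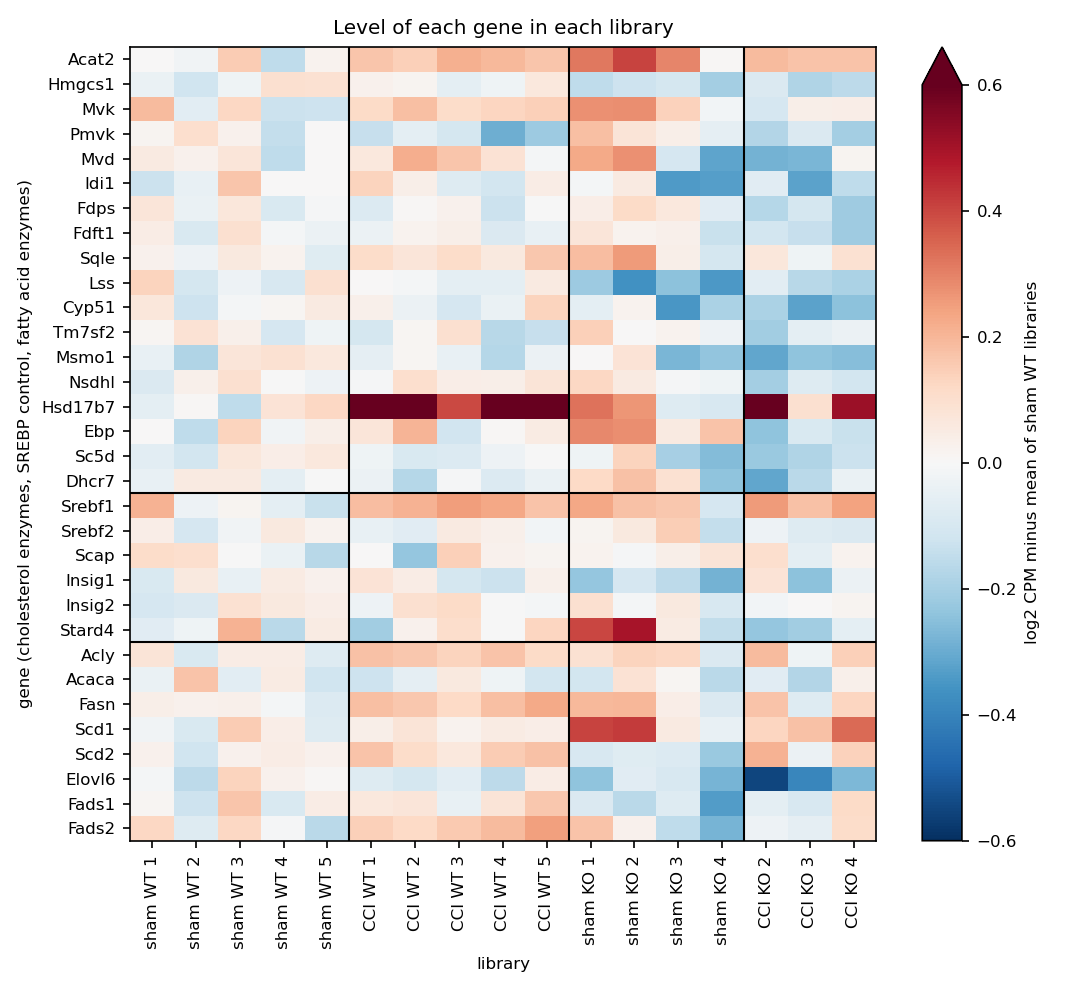
Log2 CPM of each member (rows, by role) in each of the 17 libraries (columns) minus the mean of the sham wild-type libraries; red is higher, blue lower, and values above 0.6 take the darkest red. Hsd17b7 stands out in the CCI libraries, and the cholesterol enzymes are mostly blue in the 3 CCI KO libraries.

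In wild-type ganglia, CCI was compared with sham to ask how the pathway stood 30 days into nerve injury. The 1 member past the threshold (adjusted p under 0.05) was Hsd17b7 (ENSMUSG00000026675, chr1:169777093-169796813), where 3.06% of all tested genes passed. It read 67.1, 70.3, 62.9, 73.97 and 76.3 CPM in the sham libraries 1 to 5 and 126.0, 120.2, 92.1, 117.1 and 124.0 CPM in the CCI libraries. Every CCI library lay above every sham library. The mean rose from 70.1 ± 5.35 to 115.9 ± 13.7 CPM (SD, n = 5 each), a log2 fold change of 0.72 ± 0.13 (SE, adjusted p = 0.00489 by edgeR). Its exons overlap no other annotated gene. The call held in each of the 17 fits that left out 1 library (0.69 to 0.80).

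Around Hsd17b7 the rest of the sterol pathway showed small differences in both directions. The largest were Acat2 (0.17, adjusted p = 0.131 by edgeR) and Pmvk (-0.16, adjusted p = 0.146 by edgeR). Of the 18 cholesterol enzymes 9 had a positive and 9 a negative log2 fold change, and the median over all 32 members was 0.007, beside -0.007 over all tested genes. Hmgcs1 (0.00), Cyp51 (0.00), Idi1 (0.00), Lss (-0.02) and Fdft1 (-0.02) were within 1 SE of no difference. At an unadjusted p under 0.05 there were 7 positive members and 1 negative, 8 of 32, where 13.8% of all genes lay. The fatty acid enzymes contributed 4 of these, all positive, and 6 of the 8 enzymes were positive, with a median of 0.10. Fasn read 337.4, 335.2, 336.1, 327.1 and 311.6 CPM in sham WT and 373.1, 369.0, 358.2, 373.0 and 385.8 CPM in CCI WT, groups that did not overlap, yet its difference of 0.17 ± 0.06 missed the threshold (adjusted p = 0.0896 by edgeR). Acly likewise separated the groups, at 880.6 to 992.1 against 1017.7 to 1061.8 CPM (0.15, adjusted p = 0.119 by edgeR). Srebf1, the regulator that favours fatty acid enzymes, was 93.2 to 118.2 in sham and 115.0 to 121.5 CPM after CCI, with 1 sham library inside the CCI range (0.20 ± 0.06, adjusted p = 0.0787 by edgeR). Limma-voom with quality weights placed 6 members past the threshold, all higher: Srebf1, Acly, Acat2, Fasn, Scd2 and Hsd17b7, where it passed 4.97% of all genes. The edgeR count was 4 without sham KO library 4 (3.83% of all genes), adding Acat2, Fasn and Srebf1. It was 2 without sham WT library 1 (2.68%), adding Srebf1, and 2 without sham KO libraries 1 and 2 (3.86%), adding Fasn.

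**Figure D3:**
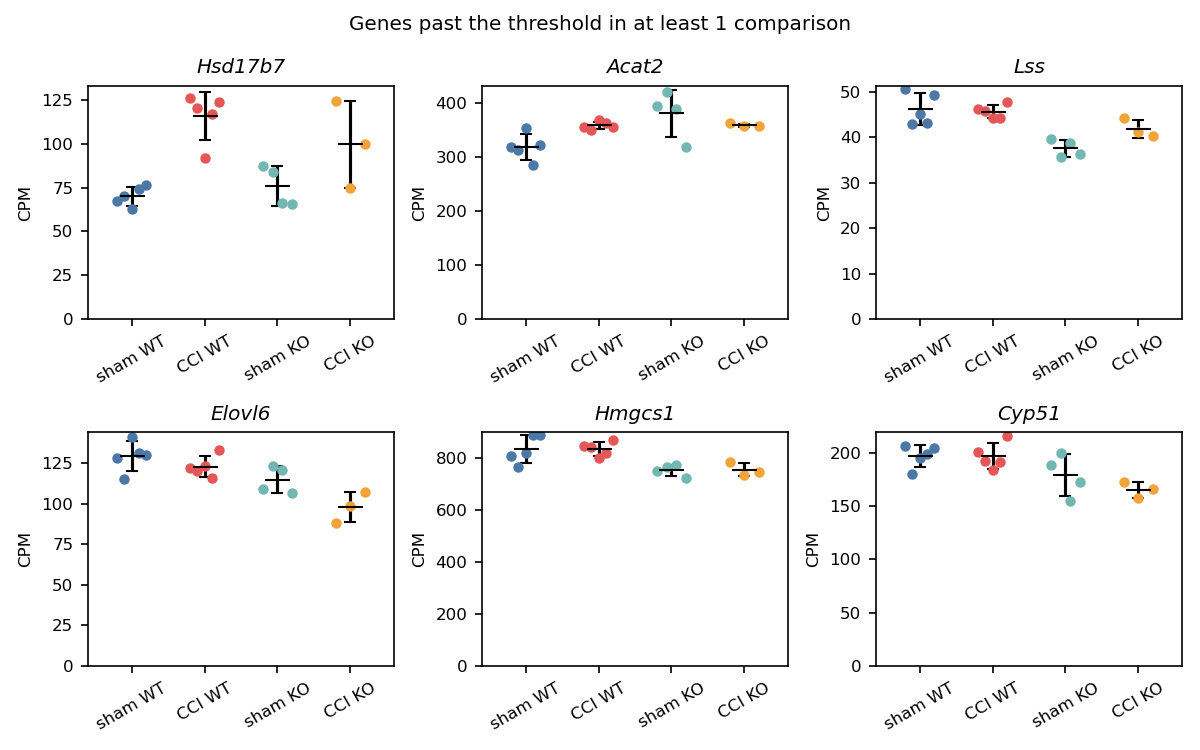
CPM of the 6 members past the threshold in at least 1 comparison, in each library (points) of the 4 groups, with bars for mean and SD, on axes from 0. Hsd17b7 is 62.9 to 76.3 CPM in sham WT and 92.1 to 126.0 in CCI WT, and Elovl6 is lowest in CCI KO.

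Other cell and injury markers moved in the same comparison, where 3.06% of all tested genes passed the threshold. All 12 axon injury genes rose, 3 of 9 macrophage markers rose (sum 46.3 to 85.2 in sham WT, 66.3 to 135.2 CPM in CCI WT), and 2 of 6 satellite glia markers rose (490.7 to 632.7 against 674.3 to 764.7 CPM). No gene of these 3 lists was at 0 in any library. Of the other marker lists, 1 of 15 myelinating Schwann cell, 1 of 6 fibroblast and 1 of 5 endothelial genes rose, 1 of 10 sensory neuron genes rose and 2 fell, and none of 6 skeletal muscle genes passed, also at an unadjusted p under 0.05. Of the 8 adipocyte genes tested, all had a negative log2 fold change (median -1.55) and 1 fell (Cidea). Within groups, the CCI WT library with the lowest Hsd17b7, library 3, also had the lowest axon injury sum of its group (1376 CPM, the others at 1993 to 2274). The same held for CCI KO library 3, at 74.8 CPM of Hsd17b7 and an axon injury sum of 1233. Other libraries went the other way. Sham WT library 3 had the highest axon injury sum of its group (763 CPM) and the lowest Hsd17b7 (62.9 CPM). CCI WT library 1 had the highest Hsd17b7 of its group (126.0 CPM) at a sum of 1993, next above library 3. By contrast, sham KO libraries 1 and 2 had both the highest axon injury sums (1469 and 1266 CPM) and the highest Hsd17b7 (87.6 and 84.2 CPM) of all shams. The part of these markers in the Hsd17b7 result was not tested. In bulk ganglia, a change in the number of cells of a type and a change in RNA per cell cannot be told apart.

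**Figure D4:**
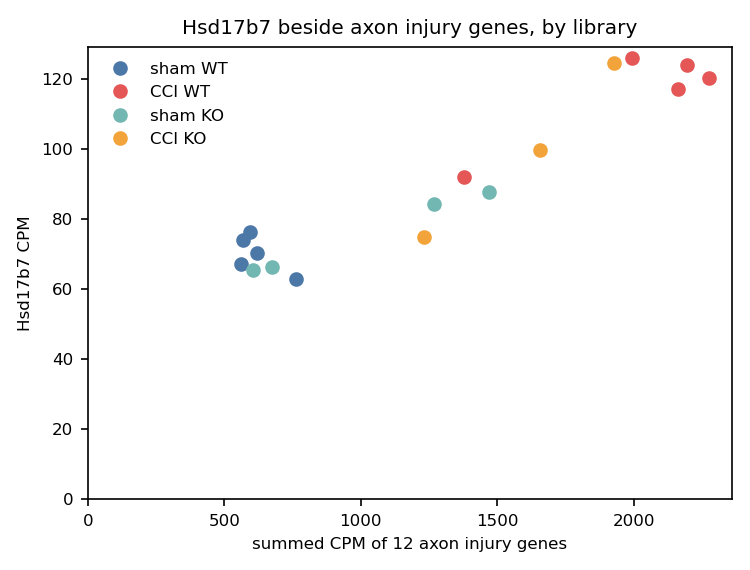
Hsd17b7 CPM (vertical axis, from 0) against the summed CPM of 12 axon injury genes (horizontal axis, from 0), 1 point for each of the 17 libraries, coloured by group. The lowest CCI WT point (92.1 CPM) and the lowest CCI KO point (74.8 CPM) are also the leftmost of their groups, and 2 sham KO points lie to the right of all sham WT points. The lowest sham WT point (62.9 CPM) is instead the rightmost of its group.

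In knockout ganglia, CCI against sham gave no member past the threshold by edgeR, where 0.0834% of all tested genes passed. Of the 12 axon injury genes, 0 passed in this comparison, while all 12 were positive and 4 had an unadjusted p under 0.05. With sham KO libraries 1 and 2 left out, 8 of the 12 passed (0.578% of all genes). At an unadjusted p under 0.05 there were 2 positive members and 10 negative, 12 of 32, where 8.63% of all genes lay. Hsd17b7 read 87.6, 84.2, 66.4 and 65.4 CPM in sham KO libraries 1 to 4 and 124.6, 74.8 and 99.7 CPM in CCI KO libraries 2 to 4. The groups overlapped through CCI KO library 3, and the difference was 0.39 ± 0.15 (adjusted p = 0.454 by edgeR). The smallest p belonged to Ebp, a sterol isomerase, at 62.1, 61.9, 52.9 and 57.4 CPM in sham and 43.0, 47.9 and 46.5 CPM after CCI. These groups did not overlap, and the difference was -0.36 ± 0.08 (adjusted p = 0.122 by edgeR); DESeq2 called this 1 member, where it passed 0.706% of all genes, and limma-voom 1 other, Scd2, where it passed 0.129%. Scd2 was 0.23 ± 0.06 higher (adjusted p = 0.178 by edgeR) and passed without CCI KO library 3 (0.148% of all genes). Fdps was -0.20 ± 0.06 (adjusted p = 0.235 by edgeR).

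Of the 18 cholesterol enzymes, 15 had a negative log2 fold change in this comparison, with a median of -0.14, while the fatty acid enzymes were split 4 and 4 and the 6 control genes 2 positive and 4 negative. This balance depended on sham KO libraries 1 and 2. Without them the median over all 32 members moved from -0.069 to 0.015, 13 members were negative where 23 had been, none passed (0.578% of all genes did), and Hsd17b7 was 0.60 ± 0.18 higher (adjusted p = 0.221 by edgeR). The negative members at an unadjusted p under 0.05 by edgeR were then Ebp, Elovl6 and Fdps. The positive ones were Scd2, Hsd17b7, Scd1, Fads2, Srebf1 and Fads1.

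Knockout was compared with wild type in sham to ask how the genotypes differed without nerve injury. Acat2 (ENSMUSG00000023832, chr17:13161367-13179641), the thiolase that condenses acetyl-CoA at the start of the pathway, was higher, and Lss (ENSMUSG00000033105, chr10:76367298-76392976), which closes the sterol ring, was lower. These were 2 of 32 members, where 1.0% of all tested genes passed. Acat2 read 317.1, 312.2, 352.3, 284.9 and 321.6 CPM in sham WT and 394.2, 419.7, 388.9 and 318.3 CPM in sham KO, with library 4 inside the wild-type range. Its difference was 0.26 ± 0.06 (adjusted p = 0.0443 by edgeR). Lss read 50.5, 42.8, 45.1, 43.1 and 49.2 CPM in sham WT and 39.5, 35.7, 38.8 and 36.3 CPM in sham KO. The Lss groups did not overlap (-0.30 ± 0.07, adjusted p = 0.0280 by edgeR). Hmgcs1 had the next smallest p, at -0.15 (adjusted p = 0.158 by edgeR).

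The sham comparison had 19 positive and 13 negative members and a median of 0.031, beside 0.003 over all genes. At an unadjusted p under 0.05 the balance was the other way, with 7 lower and 4 higher, 11 of 32, where 11.4% of all genes lay. Neither call held without sham KO libraries 1 and 2, when Acat2 was 0.16 (adjusted p = 0.618 by edgeR) and Lss -0.29 (adjusted p = 0.259 by edgeR), and the median was -0.047, with 23 members negative, where 0.146% of all genes passed. The members of smallest p were then all lower: Idi1 (-0.33), Msmo1 (-0.25), Cyp51 (-0.26), Sc5d (-0.23) and Lss. Acat2 was the only higher member at an unadjusted p under 0.05 by edgeR in that fit. Leaving out 1 library at a time gave 0 calls without sham KO 1, sham KO 2, sham WT 1, sham WT 5 or CCI WT 1, and 1 call without sham KO 3, sham WT 2, sham WT 4, CCI KO 4 or CCI WT 4. Over these 10 fits 0.371% to 1.98% of all genes passed. A term for the replicate number also left 0 calls (0.58% of all genes).

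After CCI, Elovl6 (ENSMUSG00000041220, chr3:129326004-129432144), which lengthens saturated and monounsaturated fatty acids, was lower in the knockout, the 1 member past the threshold where 0.684% of all tested genes passed. It read 122.1, 120.0, 123.4, 115.9 and 133.0 CPM in CCI WT and 88.1, 98.5 and 107.0 CPM in CCI KO. Every knockout library lay below every wild-type library, and the difference was -0.33 ± 0.07 (adjusted p = 0.0270 by edgeR). The call was lost without CCI KO 2, CCI KO 3, CCI WT 1, CCI WT 2 or CCI WT 5, where 0.0701% to 0.438% of all genes passed, and with a term for the replicate number (0.38%). Limma-voom added Hmgcs1 and Cyp51, for 3 calls, where it passed 1.83% of all genes.

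Most members were on the lower side in the knockout after CCI. Negative log2 fold changes were found for 27 of 32 members, with a median of -0.11, beside -0.007 over all genes, of which 48.7% were positive. All 10 members at an unadjusted p under 0.05 were negative, where 8.78% of all genes lay, and 9 of these were cholesterol enzymes. Cyp51, which demethylates lanosterol, read 201.2, 192.8, 183.9, 192.1 and 216.4 CPM in CCI WT and 172.8, 157.7 and 166.4 CPM in CCI KO. The groups did not overlap, and the difference of -0.25 missed the threshold (adjusted p = 0.127 by edgeR). Nsdhl, which acts in removing sterol methyl groups other than that removed by Cyp51, was 98.3 to 105.8 CPM against 85.8 to 93.6 CPM. This was again without overlap (-0.18, adjusted p = 0.229 by edgeR). Msmo1 was 408.6 to 462.8 CPM against 370.4 to 388.3 CPM, also without overlap (-0.21, adjusted p = 0.263 by edgeR). How many of all tested genes lacked overlap between these groups was not counted. Mvd (-0.28), Idi1 (-0.19), Ebp (-0.20), Sc5d (-0.13), Fdps (-0.13) and Fdft1 (-0.13) lay on the same side, whereas Acat2 (0.00), Pmvk (0.01), Srebf1 (0.01), Scap (0.02) and Scd1 (0.17) did not. Without sham KO libraries 1 and 2, which belong to neither group of this comparison but bear on the genes tested, the scaling and the shared spread, the median was -0.109 and Elovl6 was again the 1 call (0.873% of all genes).

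**Figure D5:**
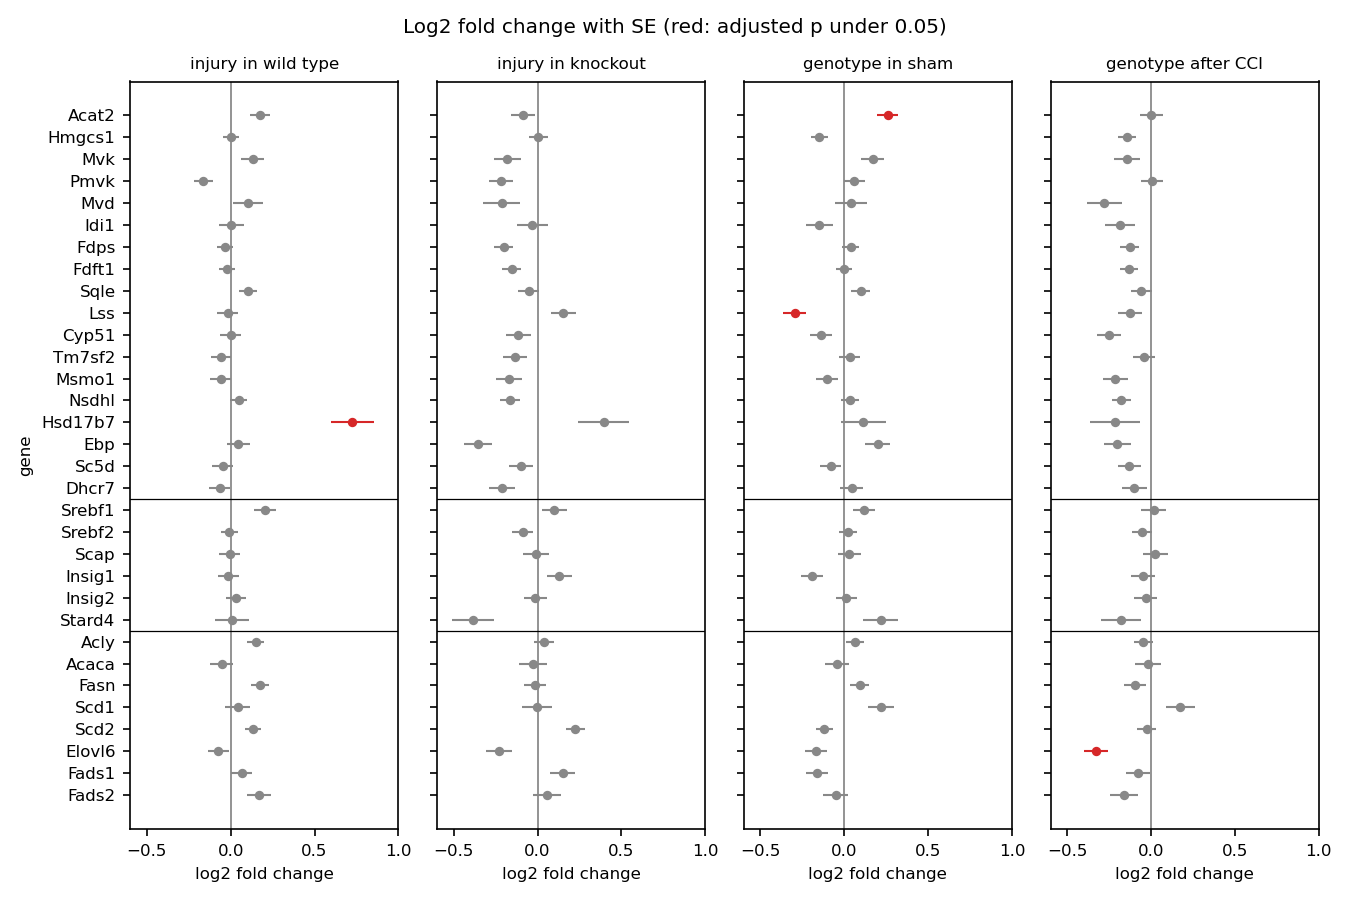
Log2 fold change (horizontal axis, bar for SE) of each member (rows, by role) in 4 comparisons, with red for an adjusted p under 0.05. Hsd17b7 (0.72) is alone in red for injury in wild type, and 27 of 32 members lie left of 0 for knockout against wild type after CCI.

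Averaged over sham and CCI, the knockout effect passed the threshold for 4 of 32 members, all lower, where 2.55% of all tested genes passed and 1.86% passed as lower. They were Elovl6 (-0.25 ± 0.05, adjusted p = 0.00384), Lss (-0.21 ± 0.05, adjusted p = 0.0169), Hmgcs1 (-0.15 ± 0.04, adjusted p = 0.0221) and Cyp51 (-0.20 ± 0.05, adjusted p = 0.0236), all by edgeR. Hmgcs1 (ENSMUSG00000093930, chr13:120151915-120170470) read 809.5, 766.6, 819.1, 890.5 and 888.8 CPM in sham WT and 751.1, 764.8, 773.5 and 724.8 CPM in sham KO. After CCI it read 847.5, 841.9, 801.1, 819.4 and 870.2 CPM in WT and 785.2, 734.8 and 748.2 CPM in KO. The genotypes overlapped narrowly in sham and not at all after CCI. Cyp51 (ENSMUSG00000001467, chr5:4123416-4154751) read 206.9, 180.9, 195.7, 199.1 and 204.7 CPM in sham WT and 189.4, 199.9, 154.9 and 173.0 CPM in sham KO, where the genotypes overlapped. Elovl6 read 128.2, 115.6, 141.3, 131.6 and 129.8 CPM in sham WT and 109.0, 123.2, 120.8 and 106.3 CPM in sham KO, also with overlap.

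The 3 sterol genes among these act at separate stages of the pathway: Hmgcs1 before mevalonate, Lss at ring closure and Cyp51 directly after it. Of the 18 cholesterol enzymes 3 passed and 14 were negative, of the 8 fatty acid enzymes 1 passed and 6 were negative, and of the 6 control genes none passed by edgeR, with 1 at an unadjusted p under 0.05. Scd1 was 0.20 ± 0.06 (adjusted p = 0.0829 by edgeR), on the higher side, and DESeq2 (6.07% of all genes) and limma-voom (4.48%) placed it past the threshold. Leaving out sham KO libraries 1 and 2 brought Scd1 to 0.09 (adjusted p = 0.428 by edgeR). Its sham difference then went from 0.22 to 0.01. The median over members was -0.038, beside -0.001 over all genes. Without sham KO libraries 1 and 2 the median over members was -0.083, and 27 of 32 members were negative where 23 had been.

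The count of 4 depended on single libraries. It was 1 (Elovl6) without CCI KO 3 (1.54% of all genes) or CCI KO 4 (1.65%), and 2 without sham WT 5 (2.15%), CCI WT 1 (2.12%) or CCI WT 5 (1.99%). Without sham KO libraries 1 and 2 it was 6, where 1.59% of all genes passed, all lower: Cyp51, Elovl6, Idi1, Msmo1, Mvd and Sc5d, while Hmgcs1 (adjusted p = 0.0743) and Lss (adjusted p = 0.0687) then missed the threshold by edgeR. With a term for the replicate number it was 1, Elovl6 (1.68% of all genes). Elovl6 passed in all 17 fits that left out 1 library.

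Schwann cell markers moved with genotype in the same libraries. Summed over 15 myelinating Schwann cell genes, CPM was 9939 to 13909 in sham WT and 10927 to 14839 in CCI WT, but 4848 to 6446 in sham KO and 6040 to 7417 in CCI KO, without overlap between genotypes. Of the 15, 10 were lower in the knockout in sham (1.0% of all genes passed), 10 after CCI (0.684%) and 14 in the mean (2.55%). None was at 0 in any library. Without sham KO libraries 1 and 2 these counts were 3 (0.146% of all genes), 10 (0.873%) and 12 (1.59%). In the mean, 1 of 6 satellite glia genes was higher and 1 of 6 fibroblast genes lower (2.55% of all genes passed). Leaving out sham KO libraries 1 and 2 kept the fibroblast call and lost the other (1.59%). All 10 sensory neuron and all 6 skeletal muscle genes were positive in the mean, none past the threshold. Skeletal muscle genes summed to 154 to 270 CPM in CCI KO and 6.65 to 103 in CCI WT. In sham they summed to 1.85 to 209 CPM in WT, and to 14.0, 16.7, 1007 and 4.14 CPM in KO libraries 1 to 4. The part of these markers in the lower values of the lipid synthesis genes was not tested. Adipocyte markers summed to 2.90 to 26.6 CPM in all libraries except sham WT libraries 1 and 3, at 38.3 and 105.5 CPM, where Fasn read 337.4 and 336.1 CPM. Lep and Ucp1 were at 0 in most libraries.

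The difference between the injury responses of the 2 genotypes (knockout minus wild type) passed the threshold for no member and for 0% of all tested genes by edgeR, and DESeq2 (0.123% of all genes) and limma-voom (0.0167%) also called 0 members. At an unadjusted p under 0.05 there were 8 members, all negative, where 5.87% of all genes lay. The smallest p values were those of Ebp (-0.40 ± 0.11, adjusted p = 0.571), Mvk, the mevalonate kinase (-0.31 ± 0.10, adjusted p = 0.694), and Acat2 (-0.26 ± 0.09, adjusted p = 0.724), all by edgeR. For Hsd17b7 the difference was -0.33 ± 0.20 (adjusted p = 0.903 by edgeR), so its responses in the 2 genotypes were not shown to differ. Of the 32 members 26 were negative, with a median of -0.11, and without sham KO libraries 1 and 2 these became 19 and -0.028. Ebp was then the only member at an unadjusted p under 0.05 by edgeR.

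In the fit of all 17 libraries by edgeR, the 6 control genes stayed under the threshold in all comparisons, and each comparison other than knockout against wild type after CCI had 1 of them at an unadjusted p under 0.05. Srebf2 was 219.5 to 245.4 CPM in sham WT, 224.6 to 244.7 in CCI WT, 213.1 to 260.8 in sham KO and 221.7 to 230.9 in CCI KO, so all groups overlapped. Scap and Insig2 were equally level, with log2 fold changes between -0.01 and 0.03 in injury in wild type, injury in knockout and knockout in sham. Insig1, itself a sterol-responsive gene, was 81.9 to 90.6 CPM in sham WT and 71.5 to 81.1 CPM in sham KO, without overlap (-0.19, adjusted p = 0.190 by edgeR, and -0.21, adjusted p = 0.532, without sham KO libraries 1 and 2). Srebf1 passed after injury in wild type by limma-voom and by edgeR with no filter on low counts, without sham KO library 4 or without sham WT library 1. Stard4 passed after injury in knockout by edgeR with no filter.

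Neighbouring lipid genes were counted in 3 further lists, fitted with edgeR. Of 18 sterol transport and LXR genes, 2 rose after CCI in wild type (3.06% of all genes passed). Abca1, the cholesterol efflux pump, went from 60.4 ± 3.99 to 119.8 ± 22.0 CPM (0.99 ± 0.16, adjusted p = 0.00266), with every CCI library (88.4 to 148.2) above every sham library (56.1 to 66.9). Soat1, which esterifies cholesterol for storage, was 0.40 ± 0.10 higher (adjusted p = 0.0228). In the mean genotype effect 2 of 18 fell (2.55% of all genes passed), the lipoprotein receptors Scarb1 (-0.34 ± 0.08, adjusted p = 0.0138) and Lrp1 (-0.25 ± 0.06, adjusted p = 0.0317). Without sham KO libraries 1 and 2, Scarb1 passed (-0.41, adjusted p = 0.00756) and Lrp1 did not (-0.21, adjusted p = 0.196). The other comparisons called 0 of 18, with 5 at an unadjusted p under 0.05 in sham (11.4% of all genes), 5 for injury in knockout (8.63%), 4 after CCI (8.78%) and 3 for the difference between injury responses (5.87%).

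Of 20 other lipogenic and SREBP-processing genes, 2 rose after CCI in wild type, where 3.06% of all genes passed: Fads3, a relative and chromosomal neighbour of Fads1 and Fads2 (0.40 ± 0.10), and Gpam, which starts glycerolipid synthesis (0.33 ± 0.09, adjusted p = 0.0305 for both by edgeR). Elovl1, which makes very long chain fatty acids, was the 1 gene of this list lower in the knockout, in sham (1.0% of all genes passed) and after CCI (0.684%). It read 135.3 to 164.8 CPM in sham WT, 137.7 to 181.8 in CCI WT, 98.7 to 107.0 in sham KO and 98.5 to 114.5 in CCI KO. The genotypes did not overlap, and the difference was -0.52 ± 0.07 in sham (adjusted p = 0.000416) and -0.57 ± 0.08 after CCI (adjusted p = 0.000689 by edgeR). Without sham KO libraries 1 and 2 the sham difference was -0.49 ± 0.09 (adjusted p = 0.0202 by edgeR). Elovl1 differed in the same direction as Elovl6, in the same libraries as the Schwann cell markers given above. Injury in knockout called 0 of these 20, with 5 at an unadjusted p under 0.05 (8.63% of all genes), and the difference between injury responses 0, with 1 (5.87%). Of 14 fatty acid oxidation genes, Slc25a20, the mitochondrial carnitine carrier, rose after CCI in wild type (0.30 ± 0.08, adjusted p = 0.0377 by edgeR), where 3.06% of all genes passed, and none passed in the other comparisons, with at most 2 at an unadjusted p under 0.05.

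The library kit keeps no strand, so reads in exons shared with another gene cannot be assigned by strand. Such exon bases make up 28.3% of Cyp51 (shared with Akap9 and others), 24.8% of Fdft1 (Ctsb), 20.5% of Mvd and 12% of Hmgcs1, but 7.3% of Acat2, 4.8% of Lss and 0.4% of Elovl6. Scd1 and Scd2 are close relatives, and how reads that fit both were counted is not given.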

How the data were processed

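Bulk RNA from 17 libraries was prepared with a SMART-Seq v4 kit, per the labels. The authors deposited 1 table of raw counts per gene and library. Per the submitters' processing notes, bcl2fastq 2.20.0.422, STAR 2.7.11a and the GRCm39 build were used; how the counter treated strand, and with which annotation, is not given in the sources used here. Summary lines (5 per table) were excluded (no feature 4.03 to 4.55%, ambiguous 7.63 to 8.17% of each library). GENCODE mouse release 39 named 78168 of 78298 identifiers.

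Counts were fitted in R 4.3.3 with edgeR 4.0.16 (TMM scaling, filterByExpr with a minimum count of 10 and a minimum total of 15, 1 mean per group over all 17 libraries, robust quasi-likelihood test, 13 residual degrees of freedom). P-values were adjusted by Benjamini-Hochberg over 23972 genes, with a threshold of 0.05. The mean genotype effect averages the sham and CCI differences. CPM uses the TMM library sizes; levels per kb use the canonical transcript. Groups without overlap are described for named genes only, and the share of all tested genes without overlap was not counted. One upstream sequence is not reported here.

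The members and lists were chosen with earlier results of these data known. The named genes are members past the threshold, or the 3 of smallest p where fewer passed, the most abundant member per role, and up to 4 passing genes per pathway list; others named for a spread between libraries or a position in the pathway were chosen after their values were seen. Alternatives were DESeq2 size factors, no filter, DESeq2 1.42.0, limma-voom (limma 3.58.1) with quality weights, a replicate-number term, each library left out and, chosen after seeing the data, sham KO libraries 1 and 2 left out. Tested on simulated data for the wild-type injury comparison (23972 genes, 200 changed), the fit recovered 77% of 2-fold and 95% of 4-fold changes, with 3 false calls. Changes under 2-fold, which include all member calls, were not simulated, nor were changes in the knockout groups.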

Additional observations from a re-analysis of the deposited data

Results flagged for a closer look

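Among 96 groups of 4 or 5 libraries (32 genes in 3 groups), 2 held a library far from the others, and chance alone flags about 1 in 20 groups. Hsd17b7 in CCI WT library 3 was the lowest of its group at 92.1 CPM, with the other 4 libraries at 117.1 to 126.0 CPM. Scd2 in sham WT library 2 was the lowest of its group at 1291 CPM, with the other 4 at 1428 to 1447 CPM.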

How the results depend on the processing

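Each member called by the edgeR fit kept the sign of its log2 fold change, in the comparison that called it, under the alternatives run. Members under the threshold did change sign without sham KO libraries 1 and 2, and so did the median over the 32 members, from -0.069 to 0.015 for injury in knockout and from 0.031 to -0.047 for genotype in sham. The number of members past the threshold moved as follows, with the share of all tested genes past it under the same fit. Injury in wild type, with 1 (3.06%) by the edgeR fit, had 4 with no low-count filter (2.82%), 6 with limma-voom (4.97%), 2 without sham KO libraries 1 and 2 (3.86%), and 1 to 4 with each library left out (1.78 to 4.20%). Injury in knockout, with 0 (0.0834%), had 3 with no filter (0.485%), 1 with DESeq2 (0.706%), 1 with limma-voom (0.129%) and 0 to 1 with each library left out (0 to 0.181%). Genotype in sham, with 2 (1.0%), had 0 without sham KO libraries 1 and 2 (0.146%) and 0 to 3 with each library left out (0.371 to 2.82%). Genotype after CCI, with 1 (0.684%), had 4 with no filter (0.978%), 3 with limma-voom (1.83%) and 0 to 1 with each library left out (0.0701 to 0.963%). The mean genotype effect, with 4 (2.55%), had 7 with no filter (2.41%) and 1 to 6 with each library left out (1.54 to 4.21%). The cause of these moves was not tested. The difference between injury responses had 0 throughout.

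A replicate-number block left 0 members for genotype in sham (0.58%), 0 for genotype after CCI (0.38%) and 1 for the mean genotype effect (1.68%), and changed no other count. Whether the numbers pair the samples is not stated. Over 13466 genes, the deviations of same-numbered libraries of different groups correlated at -0.062 to 0.307 in 22 pairs, with 9 pairs over 0.1. Libraries of unlike number were not compared in this way, so these values cannot decide whether the numbers pair the samples.

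For single members, 379 values kept their side of the threshold, 43 no longer passed and 15 newly passed. With each library left out, the calls held in 17 of 17 fits for Hsd17b7 and for Elovl6 in the mean effect, 15 for Lss in the mean effect, 12 for Hmgcs1 and for Elovl6 after CCI, 11 for Cyp51 and for Lss in sham, and 8 for Acat2. All 32 members passed the filter on low counts, with a lowest library depth of 52523183 counts; the number of libraries, 3 to 5 per group, limits the precision.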
